A study of Mus musculus with 3 samples.

Results

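The epidermal differentiation complex is a cluster of genes on mouse chromosome 3 that encode the building blocks of squamous cell surfaces. Its members were taken as the protein-coding genes of the deposited table whose symbols begin with Sprr, Lce or S100a and a digit, together with Flg, Hrnr, Crnn, Lor, Ivl, Tchh and Crct1. That gave 36 genes of the 21760 in the table. Flg2, Rptn and Tchhl1 were also sought and were not analysed here. Of the 36 members, 22 had at least 20 counts in at least 1 library and are called measured below, and 14 had fewer in every library.

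RNA from mouse cornea was sequenced in 3 libraries, 1 per group. Sham mice were cut at the site of the lacrimal glands and kept the glands. The lge group had the lacrimal gland excised, which removes a source of tears and models dry eye, and is called the excision library. The pnu group was given PNU-282987, a drug that activates the α7 nicotinic receptor for acetylcholine, as eyedrops 3 times a day. The labels give no strain, age or sex, and do not say whether corneas were pooled or whether the mice given eyedrops had lost the gland. With 1 library per group there is no replicate check and no test was made, so each comparison is between libraries. Total counts were between 37692972 and 39616004, and the corneal keratin gene Krt12 had 1541851 counts in the sham library, 1135144 after excision and 1634592 with PNU-282987.

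Cells at the surface of a stratified squamous epithelium build a cornified envelope under the plasma membrane. Involucrin (Ivl) lays the scaffold, small proline-rich proteins (Sprr) cross-bridge it, and loricrin (Lor) and late cornified envelope proteins (Lce) reinforce it, all joined by transglutaminases. Filaggrin, hornerin, cornulin and trichohyalin are long S100-fused proteins that pack keratin filaments or join the envelope. The S100a proteins of the same cluster are small calcium-binding proteins, of which S100a8 and S100a9 pair as calprotectin, an antimicrobial alarmin abundant in neutrophils and induced in stressed epithelium. The cornea does not normally cornify, so these genes are read there as surface, barrier and stress genes.

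Promoters of 4 members are shown because these genes had the largest ratios between libraries at 100 or more counts. Each line gives the 250 bases before the RefSeq transcription start, 5′ to 3′ on the gene's strand, in build GRCm38.p6, and capitals mark matches to the motifs named after them. S100a9 lies on the minus strand (chr3:90695722-90695971), Lce3b on the plus strand (chr3:92932729-92932978), Lce3a on the minus strand (chr3:92926231-92926480) and S100a7a on the plus strand (chr3:90654052-90654301).
S100a9: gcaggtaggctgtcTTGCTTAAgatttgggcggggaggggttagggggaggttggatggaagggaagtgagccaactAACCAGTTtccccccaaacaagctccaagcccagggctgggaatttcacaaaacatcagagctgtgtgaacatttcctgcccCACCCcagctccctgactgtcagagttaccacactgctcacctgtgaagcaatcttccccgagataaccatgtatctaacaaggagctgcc
Lce3b: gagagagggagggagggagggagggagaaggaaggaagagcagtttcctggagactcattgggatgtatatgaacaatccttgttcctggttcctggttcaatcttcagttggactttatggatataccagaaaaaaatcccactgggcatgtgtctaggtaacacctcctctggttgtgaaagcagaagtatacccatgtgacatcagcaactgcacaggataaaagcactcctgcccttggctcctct
Lce3a: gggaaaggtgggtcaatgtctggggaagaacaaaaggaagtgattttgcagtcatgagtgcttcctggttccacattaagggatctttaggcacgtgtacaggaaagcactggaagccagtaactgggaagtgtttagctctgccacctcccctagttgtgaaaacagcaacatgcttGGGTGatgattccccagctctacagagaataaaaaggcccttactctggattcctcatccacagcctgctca
S100a7a: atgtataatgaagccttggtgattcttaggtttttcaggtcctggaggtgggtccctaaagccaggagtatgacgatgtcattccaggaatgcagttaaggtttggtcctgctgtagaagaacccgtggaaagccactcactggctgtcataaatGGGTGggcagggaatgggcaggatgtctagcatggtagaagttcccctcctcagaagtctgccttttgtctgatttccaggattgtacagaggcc

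Motifs were searched on both strands in the 32 members with a RefSeq promoter, and in 32851 promoter windows of the same length over all genes. The AP-1 motif TGANTCA, bound by Fos and Jun factors that drive many cornified envelope genes, was in 11 of the 32 members and in 6.75% of all windows. The TATA box TATAAA was in 16 of 32 and in 12.4%. The octamer ATTTGCAT was in 4 of 32 (1.60% of windows), the C/EBP motif TTGCNNAA in 4 (9.56%) and the grainyhead motif AACCNGTT in 2 (1.79%). The 4 octamer members were the related genes Sprr2d, Sprr2e, Sprr2f and Sprr2h, all unmeasured. They also held AP-1 and TATA box matches, so related genes were counted separately. The 32 members had 36 windows, and a member counted if any window matched, whereas the shares are per window. The short Kruppel-like factor motif CACCC was in 15 of 32 (52.0%), and the interferon-stimulated response element in 0 (2.98%). In the printed sequences the S100a9 promoter holds a C/EBP, a grainyhead and a CACCC match, the Lce3a and S100a7a promoters hold only CACCC, read on the other strand, and the Lce3b promoter holds none of the 7. Aligned over 250 bases, the Lce3a and Lce3b promoters were identical at 164 bases (65.6%), against 142 to 150 bases between Lce3a and the S100a7a, S100a8 or S100a9 promoter. Some windows hold several motifs, and a match is a description of letters only.

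Close copies can share reads, so each member's longest GENCODE transcript was cut into every window of 50 and 100 bases and these were looked up in the transcripts of all other genes. S100a8, S100a9, Crnn and Crct1 had 0% of 50-base windows in common with another gene. For Lce3a 19.0% of 50-base windows and 0% of 100-base windows were shared, and for Lce3b 12.1% and 1.08%. The remaining Lce3 genes overlapped more, with 24.1% of 100-base windows shared for Lce3c, 36.4% for Lce3e and 43.0% for Lce3f, so their individual counts are uncertain. The Sprr2a1 and Sprr2a2 transcripts were nearly the same sequence, at 92.5% and 92.8%, and Sprr2a3 shared 36.2%. S100a4 (50.9%) and S100a11 (34.0%) shared windows with predicted gene models.

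The 3 libraries held a similar overall amount of these transcripts but not the same members. The 36 genes together took 0.993% of sham counts, 0.949% of excision counts and 0.903% of PNU-282987 counts. The S100a genes S100a6, S100a10, S100a11, S100a14 and S100a16 made up 96.5%, 97.9% and 97.0% of those counts, and none of them differed by 2-fold. Below them, members of the Lce3 family, S100a7a, S100a8, S100a9 and Crnn were lower in excision than in sham.

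**Figure D1:**
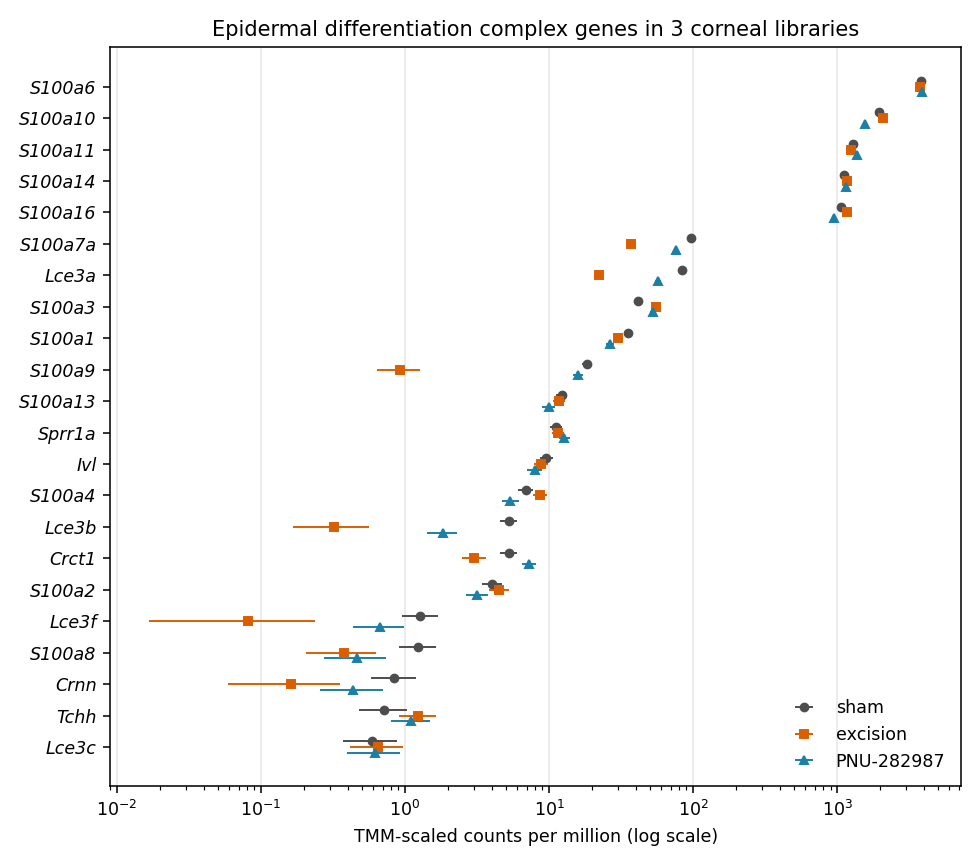
Level of each of the 22 measured members in the 3 libraries, in CPM (counts scaled to library size with TMM factors) on a log axis, with bars for the 95% Poisson interval of the count. The excision squares lie far left of the other symbols for S100a9, Lce3b and Lce3f, while the symbols of S100a6 at the top overlap.

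Counts listed without library names are in the order sham, excision, PNU-282987. A member was called higher or lower if its ratio of scaled counts was at least 2-fold and its 95% interval, an exact binomial interval for counting error only, excluded equal levels. Between excision and sham, 7 of 22 measured members were lower and 0 were higher, where 5.48% of the 14180 measured genes of the table were lower and 4.01% higher (9.49% in either direction). The 7 were Lce3a, Lce3b, Lce3f, Crnn, S100a7a, S100a8 and S100a9. The median log2 ratio of the members was -0.05 and that of all genes 0.00 (-0.00278), since the other 15 members were within 2-fold. Lce3b, Lce3f, Crnn and S100a8 had fewer than 20 counts in excision, so they passed the count minimum only through other libraries. Crnn (17 counts) and S100a8 (18) were also under 20 in PNU-282987, so they passed it only through sham. Lce3f, Crnn and S100a8 had fewer than 100 in every library. Between PNU-282987 and excision, 7 of 22 were higher (3.90% of all genes) and 0 lower (5.62%; 9.52% in either direction), with a member median of 0.02. The 7 higher members were Lce3a, Lce3b, Lce3f, Crnn, S100a7a, S100a9 and Crct1, so Crct1 stood in place of S100a8. This comparison shares the excision library with the one before, so low counts there enter both. Between PNU-282987 and sham, 2 of 22 were lower, Lce3b and S100a8 (4.96% of all genes), and 0 higher (2.58%; 7.54% in either direction), with a member median of -0.29.

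**Figure D2:**
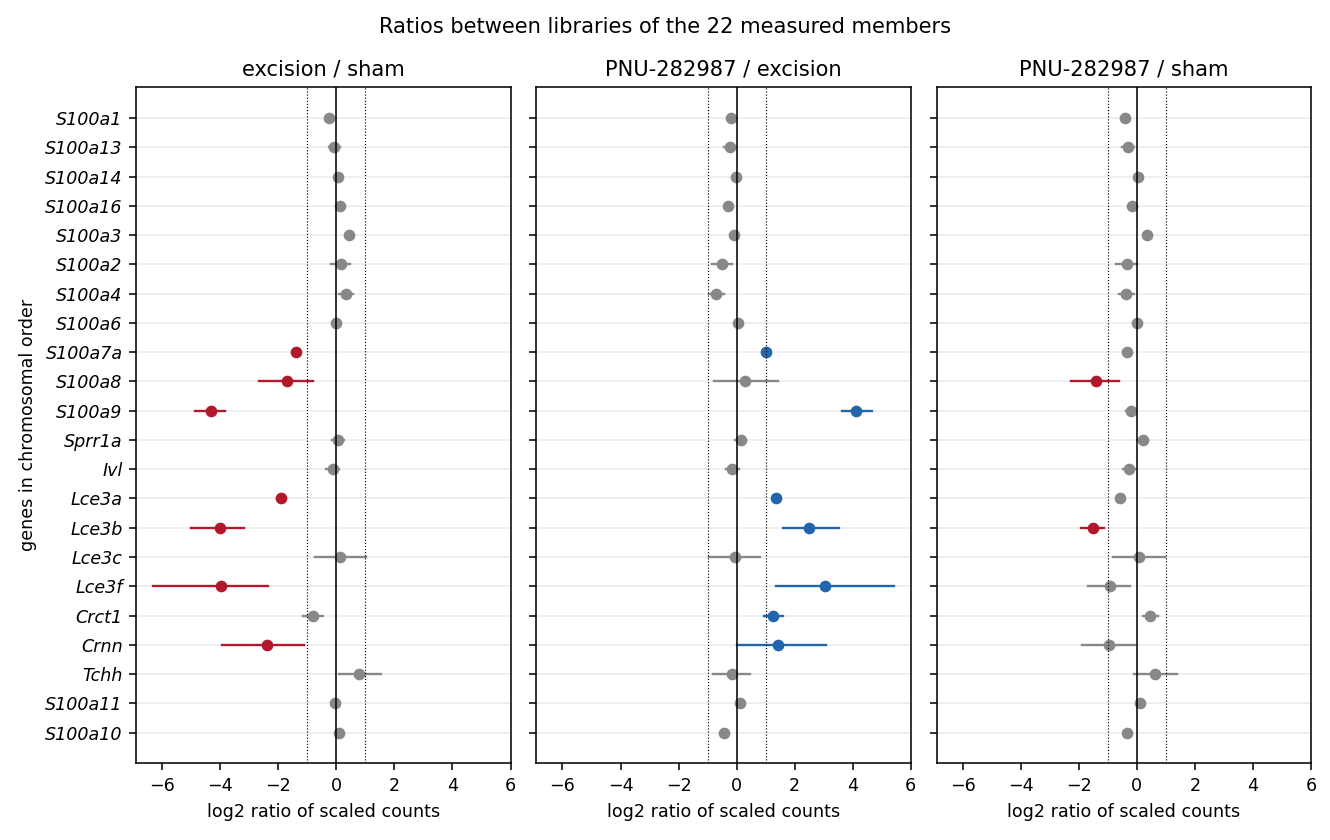
Log2 ratio between libraries of the 22 measured members, in their order along the chromosome, with 95% counting intervals. Red marks members called lower, blue those called higher and grey the rest, and dotted lines mark 2-fold. The called members lie in the stretches S100a7a to S100a9 and Lce3a to Crnn, where Lce3c is grey, whereas Sprr1a and Ivl between them stay near 0.

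Lce3 genes encode late cornified envelope proteins that in skin are linked to wounding and inflammation. Lce3a (gene ID 545548), the most counted of the family, had 3297 counts in the sham library, 825 after excision and 2217 with PNU-282987. Excision was lowest and PNU-282987 lay between the others, at a level 3.80-fold below sham for excision (95% interval 3.52 to 4.10) and 1.48-fold below for PNU-282987 (1.40 to 1.56). Against excision, Lce3a was 2.57-fold higher in PNU-282987 (2.37 to 2.79).

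Lce3b (gene ID 66344) followed the same order, with 205 counts in the sham library, 12 after excision and 71 with PNU-282987. It was 16.2-fold lower in excision than in sham (9.10 to 31.9) and 5.66-fold higher in PNU-282987 than in excision (3.04 to 11.5). Unlike Lce3a it also passed 2-fold between PNU-282987 and sham, at 2.87-fold lower (2.18 to 3.82). Lce3f had 50, 3 and 26 counts in the same order of libraries, and Lce3e, which was not measured, had 6, 2 and 5. Both were again lowest in excision, although these genes share sequence. Lce3e could not be told from equal levels, since its ratio of excision to sham had an interval of 0.0346 to 1.96.

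Lce3c did not follow its neighbours. It had 23 counts in the sham library, 24 after excision and 24 with PNU-282987. Its ratio of excision to sham was 1.10 with an interval of 0.593 to 2.04, which does not overlap that of Lce3b (0.0313 to 0.110) or Lce3f (0.0126 to 0.195). Summing the 5 Lce3 genes sets aside how reads were split among them, but not reads shared with Lce3d, which is not a member. The sum was 3581 counts in the sham library, 866 after excision and 2343 with PNU-282987, which is 91.7, 23.3 and 60.3 scaled CPM. Lce3a alone gave 92.1% to 95.3% of it. Other Lce genes were almost absent, since Lce1h had 0, 0 and 4 counts and Lce6a 0, 1 and 0.

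**Figure D3:**
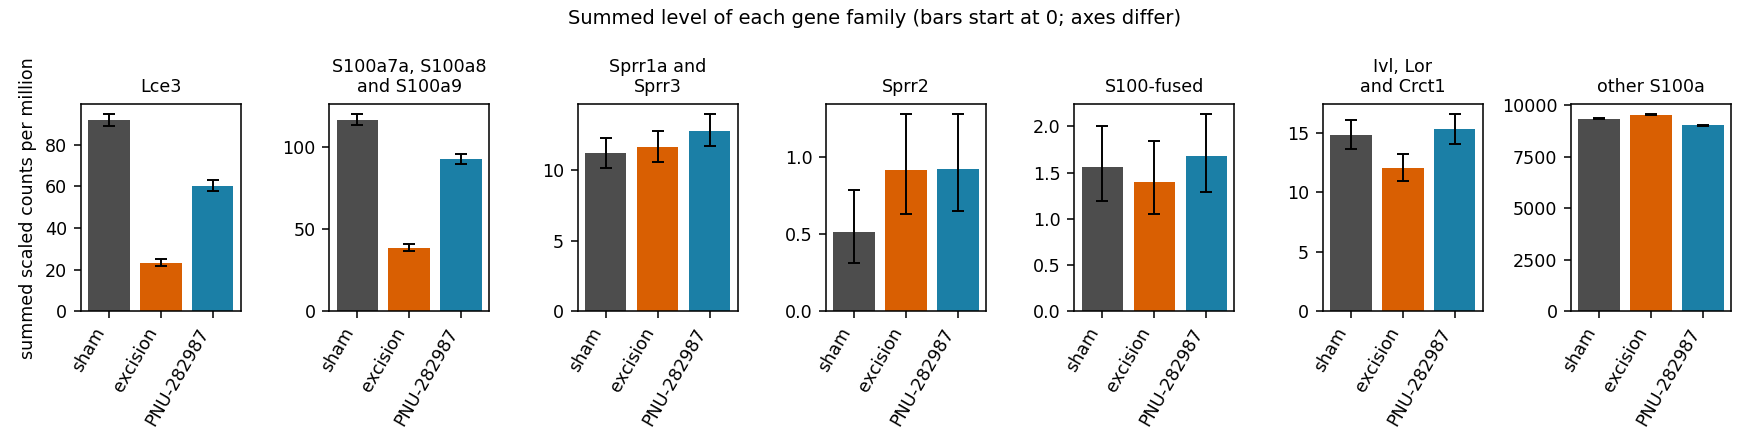
Summed level of each gene family in scaled CPM, with 95% Poisson intervals; the panels have separate axes and all bars start at 0. Lce3 (91.7 in sham, 23.3 in excision, 60.3 in PNU-282987) and the S100a7a, S100a8 and S100a9 sum (116, 38.5 and 92.3) show a low excision bar, and Sprr1a with Sprr3 and the other S100a genes are near level. Lce1h and Lce6a are not drawn.

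Cornulin and Crct1 lie next to the Lce3 genes in the cluster. Crnn (gene ID 381457), which encodes the S100-fused protein cornulin of squamous mucosa, had 33 counts in the sham library, 6 after excision and 17 with PNU-282987. It was lower in excision than in sham, with a ratio of 0.191 (0.0655 to 0.462), and the ratio of PNU-282987 to excision was 2.71 with an interval that nearly reached equal levels (1.02 to 8.39). Crct1 (gene ID 74175), a small cysteine-rich gene of the cluster, had 205, 112 and 282 counts. It was 1.74-fold lower in excision than in sham (1.38 to 2.21), under the 2-fold threshold, and 2.41-fold higher in PNU-282987 than in excision (1.93 to 3.02). Crct1 was thus lowest in excision like Lce3a and Lce3b but highest in PNU-282987 instead of sham.

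Among the S100a genes, S100a7a, S100a8 and S100a9 stood apart from the rest, and they were grouped after their values were seen. S100a9 (gene ID 20202), a calprotectin subunit, had 718 counts in the sham library, 34 after excision and 617 with PNU-282987. Its level in excision was 20.1-fold below sham (14.2 to 29.2), and PNU-282987 was 17.3-fold above excision (12.3 to 25.3) and 1.16-fold below sham (1.04 to 1.29). The intervals of Lce3b and Lce3f in the same comparison with sham reached as far, so the order of these 3 genes is within counting error.

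S100a8 (gene ID 20201), the partner subunit, had 48 counts in the sham library, 14 after excision and 18 with PNU-282987. Here PNU-282987 lay near excision, with a ratio of 1.23 (0.578 to 2.67), and below sham by 2.65-fold (1.51 to 4.84). The partners therefore differed in their balance: there were 15.0 S100a9 counts per S100a8 count in sham, against 2.43 after excision and 34.3 with PNU-282987. These values rest on few S100a8 counts, with 95% Poisson intervals of 35.4 to 63.6, 7.65 to 23.5 and 10.7 to 28.4. S100a8 also passed the count minimum only through sham. S100a7a (gene ID 381493), related to human psoriasin, an antimicrobial protein of keratinocytes, was far more counted, at 3781, 1382 and 2949. It was 2.60-fold lower in excision than in sham (2.44 to 2.77) and 2.04-fold higher in PNU-282987 than in excision (1.91 to 2.18), close to the threshold.

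Neutrophils carry calprotectin, and some of their other markers, but not all, moved with part of this pattern. Of 14 neutrophil markers, 8 were measured, and in excision 5 were lower than in sham and 0 higher. Over all measured genes, 5.48% were lower and 4.01% higher. Camp, a granule antimicrobial peptide, had 74 counts in the sham library, 9 after excision and 9 with PNU-282987, Ngp had 34, 6 and 2, and the granule protease gene Elane had 602, 132 and 156. Mpo, the granule peroxidase gene, had 515, 112 and 131, and Cd177 had 70, 10 and 25. Camp and Ngp passed the count minimum only through sham, and Cd177 only outside excision. All 5 lower markers stayed below sham in PNU-282987, as S100a8 did, whereas S100a9 was near its sham level there. Lcn2, Ltf and Itgam were within 2-fold in each comparison. Ltf (920, 995 and 1486 counts) and Itgam (6871, 9385 and 6949) lay above sham in excision, and Lcn2 (270, 206 and 270) lay below. Summed over the 11 markers in the table the level was 240 scaled CPM in sham, 293 after excision and 233 with PNU-282987, most of it from Itgam, and Ly6g had 1, 0 and 1 counts. The part of neutrophils in the S100a8 and S100a9 counts was not tested, and in bulk tissue fewer cells of a type and less RNA per cell cannot be told apart.

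**Figure D4:**
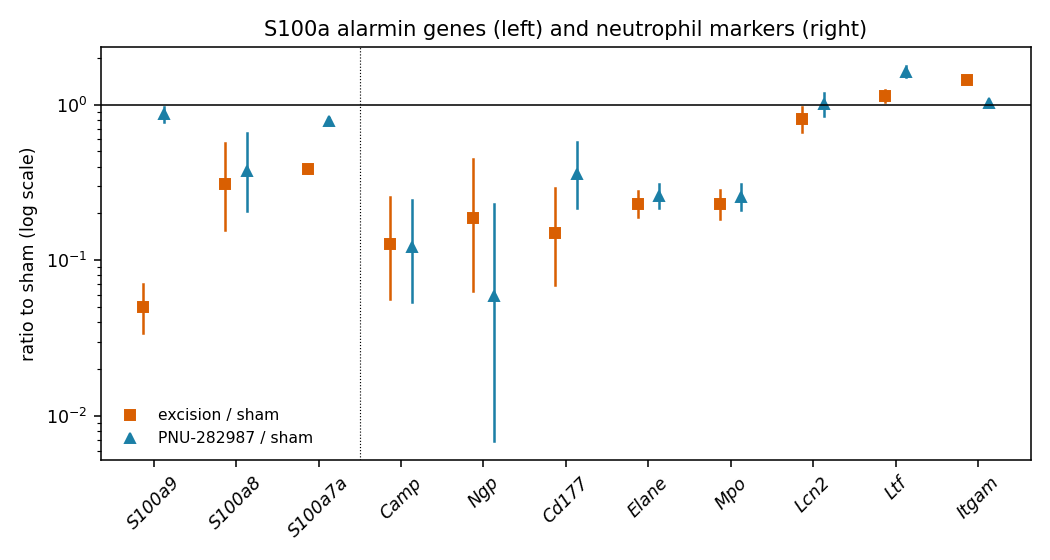
Ratio to sham, on a log axis, of S100a9, S100a8 and S100a7a (left of the dotted line) and of 8 measured neutrophil markers (right), in excision (squares) and PNU-282987 (triangles), with 95% counting intervals. S100a9 is the gene whose symbols are farthest apart, at 0.0498 in excision and 0.864 in PNU-282987, while Camp, Elane and Mpo are low in both.

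The abundant S100a genes were close to level. S100a6 (calcyclin) had 149695 counts in the sham library, 139507 after excision and 151122 with PNU-282987, and S100a11, an annexin partner, had 50038, 46485 and 53288. Per kilobase of annotated exon, S100a6 was the highest member in sham, at 2804 scaled CPM, and S100a11 and S100a10 were at 2507 and 1606. Per kilobase of the longest transcript S100a6 was again highest (4895), but S100a10 (2842) then lay above S100a11 (2507), so their order depends on the length used. S100a10, the annexin A2 partner, had 76022, 77295 and 60520 counts and was 1.34-fold lower in PNU-282987 than in excision (1.32 to 1.35), a difference beyond counting error but under 2-fold. S100a16 had the same order in a smaller range (41845, 43477 and 36746), and S100a14 was nearly constant (43699, 43469 and 45064).

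The less counted S100a genes were also within 2-fold in each comparison. S100a3, a cysteine-rich protein of the hair cuticle, had 1607 counts in the sham library, 2047 after excision and 2036 with PNU-282987 and was 1.34-fold higher in excision than in sham (1.25 to 1.43). S100a1 had 1387, 1114 and 1030, and S100a13 had 479, 435 and 386. S100a4, known from motile and fibroblast-like cells, had 269, 323 and 209 counts, so PNU-282987 was 1.62-fold below excision (1.35 to 1.93), and S100a2 had 158, 167 and 123. By their scaled counts S100a2 and S100a4 were highest in excision and lowest in PNU-282987.

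The scaffold and cross-bridging genes did not share the low excision level of Lce3. Ivl (gene ID 16447), the involucrin gene, had 373 counts in the sham library, 325 after excision and 308 with PNU-282987, and the ratio of excision to sham was 0.917 (0.788 to 1.07). Sprr1a (gene ID 20753), a cross-bridging protein, had 436, 431 and 497, with a ratio of 1.04 (0.908 to 1.19). Neither gene could be told from equal levels in that pair of libraries. The Sprr2 genes, seldom counted here, summed to 20, 34 and 36 counts. Within them Sprr2a1, Sprr2a2 and Sprr2a3, which share sequence, had 16, 31 and 19 counts together, and Sprr2f had 4, 3 and 11. Sprr3, a gene of wet squamous epithelia such as the esophagus, had 1, 1 and 0 counts.

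The loricrin, filaggrin and hornerin genes, known for the cornified layer of skin, were near the detection limit. Loricrin (Lor) had 1 count in the sham library, 9 after excision and 4 with PNU-282987, Flg, the filaggrin gene, had 0, 0 and 1, and Hrnr, the hornerin gene, 0, 0 and 4. A count of 0 allows up to 3 counts, or 0.0768, 0.0808 and 0.0773 scaled CPM in the 3 libraries. Sprr2e had 0, 0 and 4 counts, and Sprr2d and Sprr2h each had 0, 0 and 1. Tchh, the trichohyalin gene of hair follicles, had 28, 46 and 43 counts and a ratio of excision to sham of 1.73 (1.06 to 2.87). Hair follicle markers were near 0 beside it: 0 of the 10 in the table were measured, and their sum was 1.28, 0.727 and 0.541 scaled CPM. The epidermal keratin gene Krt2 had 0, 1 and 1 counts, while Krt1 (203, 279 and 264) and Krt10 (399, 325 and 364) were detected in every library. Of 8 measured skin markers 0 were called in any comparison, where 7.54% to 9.52% of all genes were called.

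Other genes of the same pathway, listed with earlier results of these data known, mostly stayed within 2-fold. The share of all measured genes called was 9.49% between excision and sham, 9.52% between PNU-282987 and excision and 7.54% between PNU-282987 and sham. Of 16 measured genes of envelope crosslinking and scaffold, 0 were called between excision and sham. Tgm1, the main transglutaminase of the envelope, had 1860, 2419 and 2342 counts, and the plakin genes Evpl (62404, 93851 and 69938) and Ppl (84871, 127469 and 90846) were highest in excision. The single call in that list was Cdsn, a corneodesmosome adhesion gene, at 2.75-fold higher in PNU-282987 than in sham (221, 301 and 605 counts; 2.36 to 3.23). Of 9 measured proteases and inhibitors of cornification 0 were called in any comparison, and Asprv1, a protease that processes filaggrin, had 339507, 374608 and 391446 counts although Flg itself was near 0. Of 12 measured lipid barrier genes, 1 was lower (5.48% of all genes) and 0 higher (4.01%) in excision than in sham. Pnpla1, the lower gene and an enzyme of skin ceramide synthesis, had 20, 5 and 5 counts. Alox12b, a lipoxygenase of the same pathway, had 6, 9 and 25. Pnpla1 passed the count minimum only through sham and Alox12b only through PNU-282987.

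Regulators of epidermal differentiation had 1 of 22 measured genes higher in excision than in sham and 0 lower, near the shares of all measured genes (4.01% and 5.48%). Their median log2 ratio was 0.29, where that of all genes was -0.00278 and that of corneal epithelium markers 0.148. The higher gene was Barx2, a homeobox factor, at 43, 212 and 229 counts, so it was higher in PNU-282987 too. Klf4 (30273, 37469 and 29061), Grhl3 (3377, 4263 and 4391), Ovol1 (1819, 2506 and 1771) and Prdm1 (2422, 4274 and 2791), all factors that promote terminal differentiation, were within 2-fold. Of 4 measured neighbours on the same chromosome outside the member list (Kprp, Pglyrp4, Them4 and Nup210l), 0 were called in any comparison. The share of all genes called was 7.54% to 9.52% per comparison, so few calls would be looked for among 4 genes. Among partners and receptors of S100 proteins, Ager, the receptor for advanced glycation end products to which several S100 proteins bind, had 65, 4 and 39 counts and was 15.4-fold lower in excision than in sham (5.75 to 58.4). Tlr4, a calprotectin receptor, had 1242, 1301 and 1227. S100g, a calcium-binding relative of the S100a genes outside the cluster, had 56, 40 and 2 counts and was 20.9-fold lower in PNU-282987 than in excision (5.43 to 179).

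Markers of other tissue differed between the same libraries. Over all measured genes, 5.48% were lower and 4.01% higher in excision than in sham, and 3.90% were higher and 5.62% lower in PNU-282987 than in excision. Lens markers were lower in excision than in sham for 14 of 14 genes and higher in PNU-282987 than in excision for 14 of 14, with summed levels of 634, 22.4 and 571 scaled CPM. Some of them, such as Cryba2 (1057, 11 and 960 counts) and Crybb1 (504, 3 and 396), passed the count minimum only outside excision. Corneal endothelium markers summed to 1889, 719.7 and 1461. Keratocyte markers were lower in excision than in sham for 4 of 9 genes and higher for 0, with sums of 1896, 1266 and 1391. Conjunctival and goblet cell markers were mixed. Against sham, the excision library had 4 of 12 measured genes higher and 2 lower. The 2 were Krt18 (238, 113 and 343 counts) and Spdef (22, 4 and 94). Against excision, PNU-282987 had 7 of 12 higher and 0 lower. Their sums rose, at 2264, 3791 and 5837, mostly from the keratin gene Krt13 (2022, 3091 and 4619 scaled CPM). Krt13 was within 2-fold between excision and sham. Muc5ac, the goblet cell mucin gene, had 1, 11 and 2980 counts. Macrophage markers were higher in excision than in sham for 7 of 11 measured genes, with sums of 31.7, 68.3 and 44.5. Among them Mrc1 and Fcer1g passed the count minimum only outside sham. Corneal epithelium markers had 0 of 23 genes called in any comparison, where 7.54% to 9.52% of all genes were called. Among these markers Krt14 was at 1.93 times sham in excision and 1.997 times in PNU-282987. Setting the median ratio of the epithelium markers to 0 lowers excision by 0.15 and PNU-282987 by 0.16 (log2) against sham. Crnn and Lce3f then joined Lce3b and S100a8 as lower in PNU-282987 than in sham, and the calls in the other comparisons were unchanged. The part of other tissue in the ratios of the members was not tested.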

How the data were processed

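The authors deposited 1 table of whole-number read counts per gene, and HTSeq and R 3.2.0 are named in the submitters' processing notes. TRIzol was used for extraction and the VAHTS Universal V6 kit for libraries, per the labels' protocols. The aligner, genome build, annotation, strand setting and treatment of shared reads were not given in the sources used here. Coordinates of counted genes are therefore left out. Counts were scaled with TMM factors (edgeR 4.0.16, R 4.3.3), of 1.04 (sham), 0.985 (excision) and 0.980 (PNU-282987). Ratios and exact conditional binomial (Clopper-Pearson) 95% intervals were computed in Python 3.11.15 with SciPy 1.17.1 over the 14180 genes with at least 20 counts in a library. Intervals hold no spread between animals, since each group has 1 library, and are too narrow where several reads came from 1 molecule. Counts simulated for excision against sham over 13581 genes with known folds gave calls for 100% of genes changed 3-fold or 4-fold, 37.9% of those changed 2-fold and 0.127% of the rest. Only counting noise was simulated, so the last share does not apply to libraries of different animals. Promoters came from RefSeq (GRCm38.p6), where 32 of 36 members matched by gene ID, and exon lengths and transcripts from GENCODE M21, matched by symbol. Full ratios are given for members called at 100 or more counts and for the most counted of each family, other members by their counts, and some genes after their values were seen. Members and lists were chosen with earlier results of these data known. Alternatives were total counts, DESeq2 1.42.0 size factors, epithelial scaling, other count minimums and folds, and leaving out the S100a family.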

Additional observations from a re-analysis of the deposited data

How the results depend on the processing

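Ratios rest on 1 library per group, so no replicate could be left out, and no test with DESeq2 or edgeR was run. No paired analysis was possible because each group has 1 library. Of the 24 alternative values of counts reported above 0, 15 stayed within 1.5 times the reported count. For excision against sham, the 7 of 22 lower members became 4 of 17 with a minimum of 100 counts. Of these 4, Lce3b and S100a9 pass it only outside excision. Without the S100a family, 4 of 9 were lower. The 0 higher members became 1 of 31 without a count minimum (Lor) and 1 of 22 at 1.5-fold (Tchh). For PNU-282987 against excision, the 7 higher members became 3 at 3-fold, and the 0 lower became 1 at 1.5-fold (S100a4). For PNU-282987 against sham, the 2 of 22 lower members became 4 with total counts only, epithelial scaling or 1.5-fold, and 0 at 3-fold. They became 1 of 17 with a minimum of 100 counts and 1 of 9 without the S100a family. The share of all genes called was computed only at the main setting. Epithelial scaling moved the median log2 ratio of all genes to -0.15 for excision against sham and -0.16 for PNU-282987 against sham. Counting error is wide for Crnn, S100a8, Lce3b, Lce3c and Lce3f and for the 14 unmeasured members.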
